A study of Mus musculus with 24 samples.

Results

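The nuclei described here are the 165 that the authors' deposited annotation of mouse lumbar spinal cord gave the label microglia, out of 13425 nuclei with a class and 18000 deposited barcodes. They were taken by that label, pooled over all 24 mice, and are the whole of cluster 7 in the deposited solution of 10 clusters. Nuclei were profiled by Drop-seq, which captures transcripts on barcoded beads in droplets and counts each original molecule once as a UMI. The mice were outbred ICR/CD-1 animals of both sexes, 8 to 11 weeks old, and the labels name no transgene. The 9 controls had no challenge named in the labels, 10 mice received formalin, which was 30 µl of 2% paraformaldehyde in the sole of each hindpaw, and 5 mice ran on a rotarod that accelerated from 0 to 40 rotations per minute in 5 minutes. Each sample is counted as 1 mouse here, although formalin samples 1 to 5 and 6 to 10 may be pairs from the same mice. The time from challenge to collection was not given, and although the tissue field of every sample says brain, the extraction protocol describes lumbar cord freed of dorsal root ganglia.

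Microglia are the resident macrophages of brain and spinal cord. They depend on the receptor Csf1r for survival, read neuronal state through the fractalkine receptor Cx3cr1 and the ATP and ADP receptors of the P2 families, and clear debris through complement, phagocytic receptors and lysosomes. In the spinal dorsal horn they are known for their part in pain after nerve injury. Macrophages at the borders of the cord and circulating myeloid cells share much of this gene programme, and neutrophil precursors and neutrophils are marked by S100a8, S100a9 and granule genes.

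Each mouse contributed between 3 and 16 nuclei under the label, with 50 in the controls, 74 in formalin mice and 41 in rotarod mice. A nucleus held a median of 994 UMIs from 693 genes, with a range of 292 to 9762 UMIs, and all 165 together held 207188 UMIs. Neuronal nuclei held a median of 2214 UMIs and oligodendrocyte nuclei 1092. None of the 165 barcodes occurred in another library. Levels are CPM, the UMIs of a gene scaled to the total of the nuclei pooled, and intervals are exact 95% intervals that cover counting error only.

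The 3 marker genes of the label were detected in a minority of its nuclei. A UMI of Csf1r, Cx3cr1 or Inpp5d, the last of which encodes the lipid phosphatase SHIP1 of blood and microglial cells, was found in 44 of 165 nuclei (26.7%, interval 20.1 to 34.1%). Csf1r was seen in 30 nuclei (18.2%), Inpp5d in 26 (15.8%) and Cx3cr1 in 11 (6.67%). The same 3 genes gave a UMI in 4.03% of neurons, 3.75% of oligodendrocytes, 4.73% of meningeal or Schwann nuclei, 3.10% of astrocytes, 8.74% of oligodendrocyte precursors (OPC) and 14.2% of endothelial or vascular nuclei. The endothelial share came mainly from Inpp5d, found in 12.5% of those nuclei. With every nucleus thinned to 300 UMIs the share was 13.4% under the label, 0.578% in neurons and 3.17% in endothelial nuclei, so at equal depth the share under the label was above that of every other class. A wider list of 23 microglia identity genes was at 3340 CPM under the label and between 104 and 527 CPM in the other 6 classes. Even so, 92 of the 165 nuclei (55.8%) held no UMI of any of the 23 genes. The nuclei are therefore called by their label below.

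Promoter sequences are shown for 3 genes by which microglia are usually recognised. They are also shown for the 2 genes whose summed UMIs defined a separate set of nuclei under the label. Each is the 250 bases before the RefSeq transcription start on GRCm38.p6, written 5′ to 3′ on the gene's strand. Capitals mark a match on either strand to GAGGAAGT, a site type of the myeloid factor PU.1, to the composite PU.1 and IRF site type, or to TTGCNNAA, a C/EBP site type added after the values were seen. Cx3cr1 lies at chr9:120068297-120068546 on the minus strand and has no match. P2ry12 lies at chr3:59262986-59263235 on the minus strand with 1 TTGCNNAA match on the opposite strand. Inpp5d lies at chr1:87620062-87620311 on the plus strand with 1 GAGGAAGT match. S100a8 lies at chr3:90668821-90669070 on the plus strand with 1 GAGGAAGT match on the opposite strand. S100a9 lies at chr3:90695722-90695971 on the minus strand with 1 TTGCNNAA match.
Cx3cr1: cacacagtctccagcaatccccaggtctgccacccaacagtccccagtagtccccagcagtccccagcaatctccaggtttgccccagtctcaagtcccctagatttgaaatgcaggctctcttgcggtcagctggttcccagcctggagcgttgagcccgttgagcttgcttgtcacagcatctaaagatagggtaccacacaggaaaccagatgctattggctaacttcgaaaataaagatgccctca
P2ry12: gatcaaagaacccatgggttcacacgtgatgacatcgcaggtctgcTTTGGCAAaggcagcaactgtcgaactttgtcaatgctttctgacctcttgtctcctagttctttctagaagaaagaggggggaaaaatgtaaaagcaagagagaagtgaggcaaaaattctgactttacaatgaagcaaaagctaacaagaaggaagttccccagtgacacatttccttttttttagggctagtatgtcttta
Inpp5d: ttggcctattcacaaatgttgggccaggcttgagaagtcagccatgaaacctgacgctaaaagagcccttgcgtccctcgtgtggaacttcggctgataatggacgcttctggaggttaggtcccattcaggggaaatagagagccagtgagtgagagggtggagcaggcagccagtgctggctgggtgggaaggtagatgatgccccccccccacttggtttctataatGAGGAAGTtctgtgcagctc
S100a8: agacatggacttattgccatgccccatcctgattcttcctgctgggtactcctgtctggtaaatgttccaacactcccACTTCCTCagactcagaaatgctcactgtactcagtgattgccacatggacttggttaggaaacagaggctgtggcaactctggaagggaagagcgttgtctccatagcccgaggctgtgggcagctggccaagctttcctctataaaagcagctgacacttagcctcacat
S100a9: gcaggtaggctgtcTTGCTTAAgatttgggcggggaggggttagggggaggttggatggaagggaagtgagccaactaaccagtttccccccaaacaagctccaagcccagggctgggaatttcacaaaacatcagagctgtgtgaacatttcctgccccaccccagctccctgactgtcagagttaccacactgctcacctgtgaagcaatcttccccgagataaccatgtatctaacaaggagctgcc
Of all 32851 RefSeq promoters, read from 250 bases before to 50 after the start, 5.84% held GAGGAAGT or the composite type, and 10.8% held TTGCNNAA, counting both strands. Among the genes enriched under the label, defined below, 82 of 112 matched the promoter table with 99 promoters. Of these, 17 (17.2%, interval 10.3 to 26.1%) held one of the first 2 motifs. TTGCNNAA was held by 15 (15.2%, interval 8.74 to 23.8%), an interval that covers the 10.8% of all promoters. For the 23 identity genes, 17 matched with 21 promoters, and 3 of these (14.3%, interval 3.05 to 36.3%) held GAGGAAGT, beside 3.20% of all promoters. In the 250 bases before the start only 1 of the 21 (4.76%) held it, beside 2.44% of all promoters. The intervals count each promoter separately, although some genes had more than 1. Of the 99 promoters of enriched genes, 55 belonged to genes led by the S100a8/S100a9 nuclei described below. A match describes the letters of the window and is not a binding site.

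Nuclei under the label fell into several kinds when they were sorted by summed marker UMIs. The cuts were set after the values were seen, so the sets are a description without tests. In order, the sets were 13 nuclei with at least 50 UMIs of S100a8 and S100a9, 4 with at least 100 haemoglobin UMIs, 18 with at least 3 UMIs of a border macrophage list, 28 with at least 3 UMIs of the identity list, 17 with at least 8 UMIs of an OPC list, and 85 remaining nuclei. The first 2 cuts lay in wide gaps: the S100a8 and S100a9 sum was 73 UMIs just inside and 1 just outside, and the haemoglobin sum 191 inside and 4 outside. The identity and border cuts had no gap, with 3 UMIs inside and 2 outside, and the OPC cut had 8 inside and 7 outside.

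**Figure D1:**
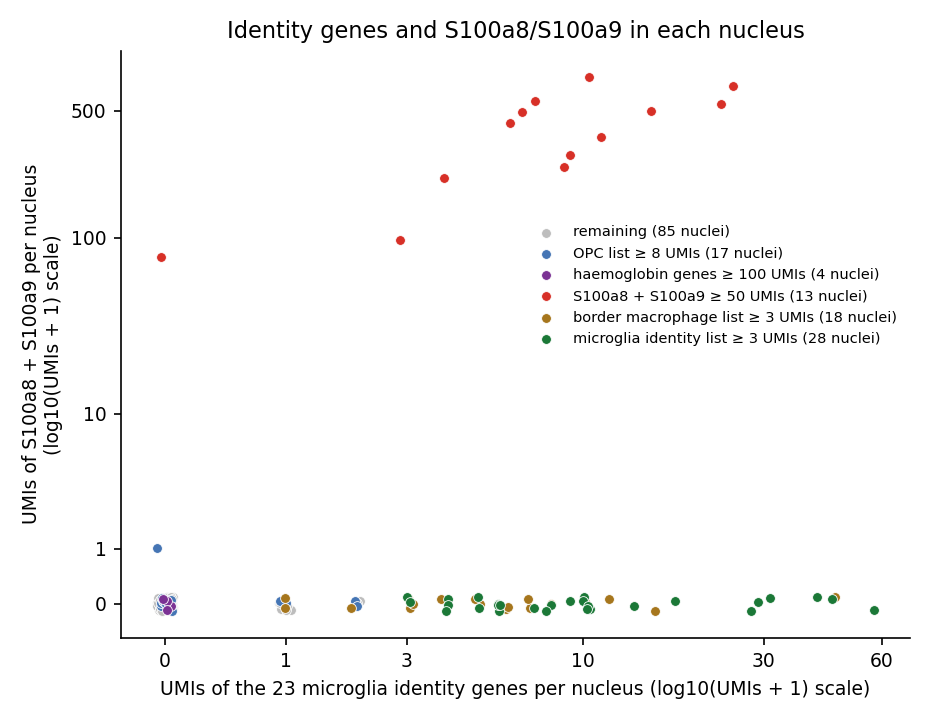
Each point is 1 of the 165 nuclei under the label, placed by its summed UMIs of the 23 identity genes (x axis, log10 of UMIs + 1) and of S100a8 and S100a9 (y axis, log10 of UMIs + 1) and coloured by set; positions are jittered slightly. The 13 S100a8/S100a9 nuclei lie at 73 to 753 UMIs on the y axis, far above all others, and 92 nuclei lie at 0 on the x axis.

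Most UMIs of the identity list, 399 of 692, lay in the identity set. Its 28 nuclei came from 16 mice, 10 nuclei from controls, 9 from formalin and 9 from rotarod mice, with a median of 1054.5 UMIs, and 25 of the 28 held a UMI of Csf1r, Cx3cr1 or Inpp5d. Csf1r stood at 832 CPM, Cx3cr1 at 1024 and Inpp5d at 1312. P2ry12, the ADP receptor that steers microglial processes, was at 832 CPM. Siglech, a lectin typical of microglia, was at 896 CPM, and 28 of its 29 UMIs under the label fell in this set. Ctss, the protease cathepsin S, was at 1728 CPM. Because the list chose these nuclei, its members had to be high here. Genes the list did not hold also led in this set: Dock8, an activator of the GTPase Cdc42 in leukocytes, reached 1056 CPM, Fyb, an adaptor of immune receptor signalling, 1696, and Hpgds, a prostaglandin D synthase, 864.

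The border set carried macrophage genes with a different balance. Its 18 nuclei came from 10 mice, 5 nuclei from controls, 11 from formalin and 2 from rotarod mice, and 15 of them also reached the identity cut. F13a1, the coagulation factor XIII subunit, was at 4768 CPM and the mannose receptor Mrc1 at 755, both members of the list that chose the set. Of genes outside that list, Apoe, a lipid carrier, stood at 6913 CPM against 384 in the identity set, the lysozyme gene Lyz2 at 4966 against 256, and the complement gene C1qa at 874 against 416. These levels leaned on control 9, with 3 of the 18 nuclei. Without that mouse Apoe was at 3095 CPM against 386, Lyz2 at 2167 against 175, and C1qa at 258 against 456, so the order turned for C1qa. P2ry12 was at 556 CPM, Cx3cr1 was at 39.7 CPM from 1 UMI and Siglech at 0 of 25170 UMIs, and Csf1r was at 834 CPM, close to the 832 CPM of the identity set.

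The S100a8/S100a9 nuclei carried granule genes and none of several defining microglial receptors. These 13 nuclei held 17.0% of all UMIs under the label. S100a8 and S100a9, whose products pair as calprotectin, made up between 3.42 and 29.2% of a nucleus's UMIs, with a median of 17.6%. Camp, the cathelicidin gene, was found in 10 of the 13 nuclei, Ngp, neutrophilic granule protein, in 11, lactoferrin (Ltf) in 10, lipocalin 2 (Lcn2) in 11, the chemokine receptor Cxcr2 in 9 and the neutrophil surface marker Ly6g in 8. Elane, Mpo and Prtn3, which encode enzymes of primary granules, gave 182, 120 and 49 UMIs in this set, all in a single nucleus of 9762 UMIs. Csf1r, Cx3cr1, P2ry12 and Siglech gave 0 UMIs in the 35267 UMIs of the set, which allows up to 85.1 CPM at 3 counts. The identity list still summed to 130 UMIs here, of which 122 fell on Fcer1g, Itgam, Tyrobp, Laptm5 and Selplg, genes that myeloid cells share.

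The S100a8/S100a9 nuclei were unevenly spread over mice. They came from 6 mice, with 6 of the 13 in rotarod 3, 2 each in control 7 and control 9, and 1 each in control 8, formalin 10 and rotarod 5. The 5 control nuclei thus all came from controls 7 to 9, the 3 with the suffix cx in their titles, which the labels do not explain. In the 9 controls S100a9 had a lowest value of 0, a median of 0 and a highest of 501 UMIs per mouse, in the 10 formalin mice 0, 0 and 94, and in the 5 rotarod mice 0, 0 and 1372. The values overlap in all 3 groups, since each holds mice without any of these UMIs.

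**Figure D2:**
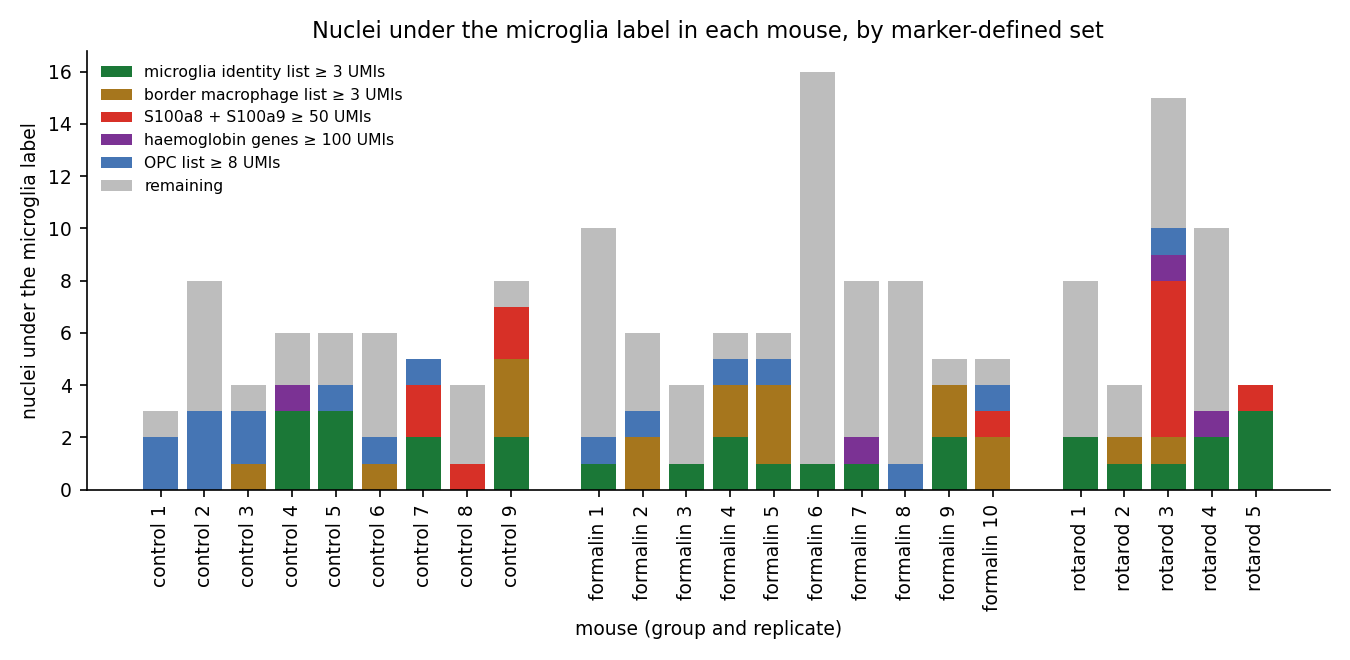
Bars give the number of nuclei under the microglia label in each of the 24 mice, split by set. Rotarod 3 holds 6 S100a8/S100a9 nuclei, and formalin 6 holds 15 remaining nuclei among its 16.

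The last 3 sets held few UMIs of the identity list. The 4 haemoglobin nuclei, 1 each in 4 mice, held Hbb-bs at 177528 CPM, the erythroid anion exchanger Slc4a1 at 4316 and the proliferation antigen Mki67 at 9639, and gave 0 identity UMIs in 6951. Proliferation genes under the label fell largely here, with 67 of the 72 Mki67 UMIs in these 4 nuclei. The 17 nuclei of the OPC list held Frmd4a, a cell polarity scaffold, at 10389 CPM, Bcas1 at 5290 and Enpp6 at 989, where Bcas1 and Enpp6 are known as marks of oligodendrocytes that begin to form myelin, while Pdgfra, the receptor that marks precursors, was at 0 UMIs of 26277. Of other precursor genes, the proteoglycan gene Vcan was at 1180 CPM, beside 1003 in the OPC class, Cspg4, which encodes NG2, at 152 beside 216, and the receptor Gpr17 at 76.1 beside 47.5. In these 17 nuclei 3 UMIs make 114 CPM, so Gpr17 lay below that count and Cspg4 little above it. An OPC list chose these 17 nuclei and not the OPC class, so levels set beside that class are not like for like. Identity UMIs came to 6 in these nuclei, or 228 CPM. The 85 remaining nuclei made up 51.5% of the label but 39.7% of its UMIs, with a median of 797 UMIs, and held 13 identity UMIs in all, or 158 CPM, which lay within the 104 to 527 CPM of the other classes. Their pooled profile held genes of other classes, including Meg3, a neuronal long non-coding RNA, at 11230 CPM.

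**Figure D3:**
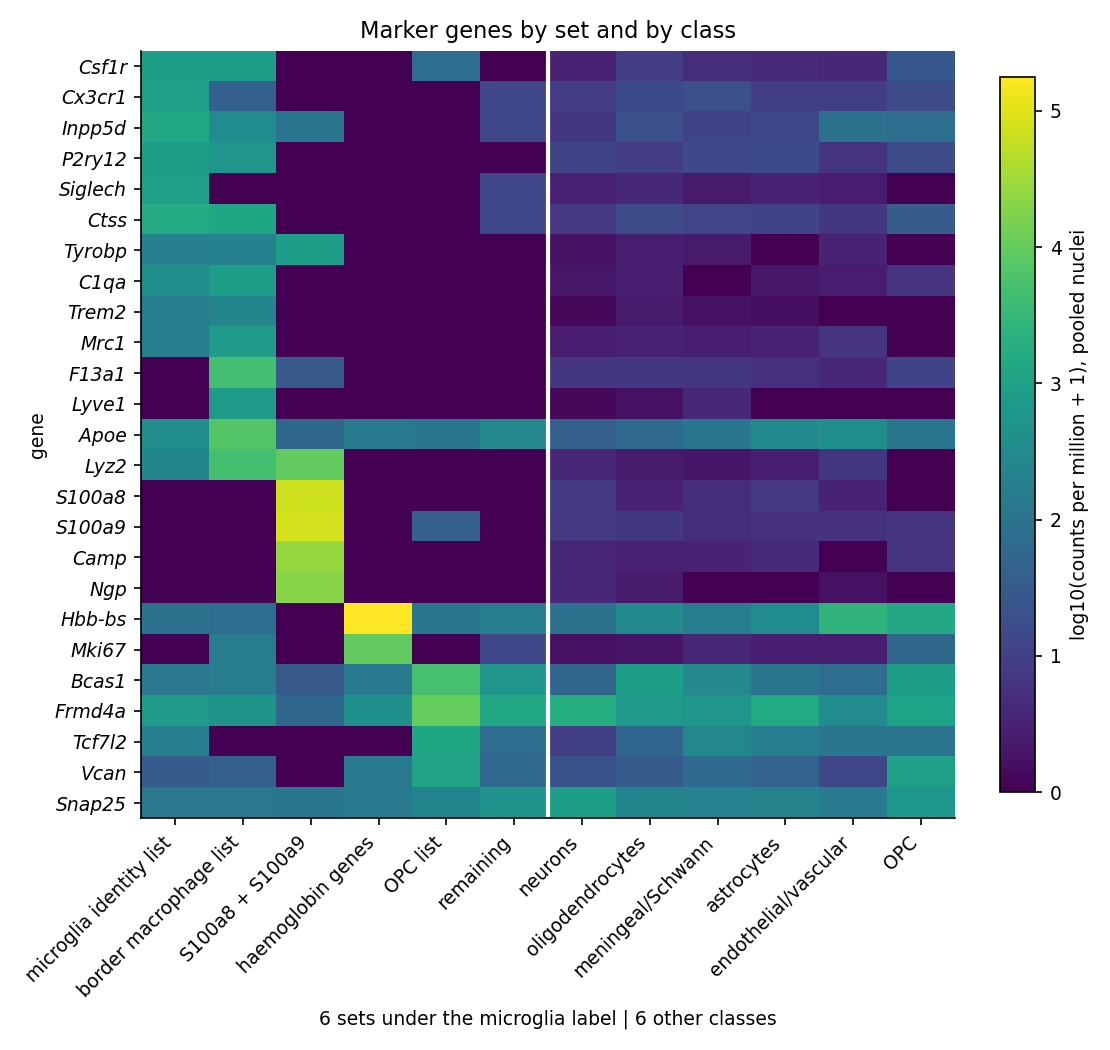
Colour gives the pooled level of each gene, as log10 of CPM + 1, in the 6 sets of nuclei under the label (left of the white line) and in the 6 other classes (right). Cx3cr1, P2ry12 and Siglech are high in the identity set and at 0 in the S100a8/S100a9 set, F13a1 and Mrc1 are highest in the border set, and Snap25 is present in every set.

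RNA of other classes made up a large share of the label. The levels of 6 marker lists under the label were fitted by a non-negative mixture of the 6 other class profiles, and the fitted shares summed to 69.6% of UMIs, with 25.2% from the oligodendrocyte profile, 20.1% from OPC, 8.29% from meningeal or Schwann, 7.38% from astrocyte, 6.69% from neuron and 1.92% from endothelial profiles. The neuron list stood at 10744 CPM under the label against 44749 in neurons, and the oligodendrocyte list at 7887 against 23298 in oligodendrocytes. Snap25, a synaptic fusion protein gene, was at 31.6% of its neuronal level, beside 26.2% in oligodendrocytes, 25.8% in astrocytes and 67.3% in OPC. The neuron list likewise stood at 8739 CPM in oligodendrocytes, 9539 in astrocytes and 20010 in OPC. By set, the fitted share was 13.8% in the S100a8/S100a9 nuclei, 33.2% in the border set, 42.8% in the identity set, 36.9% in the haemoglobin nuclei, 105% in the remaining nuclei and 130% in the OPC-list nuclei. The shares are fitted per class and are not forced to sum to 100%. Of the lists in the OPC-list nuclei, the OPC list at 9780 CPM stood above its own class at 7235. That list, at 8 UMIs or more, chose these nuclei and not the OPC class. Its level and fitted share here were thus raised by the choice. The 105% of the remaining nuclei is a sum of shares that each stayed below 100%. Free RNA, mixed nuclei and nuclei of another class under this label cannot be told apart in this fit, and with a single profile of all other nuclei, scaled by the neuron list, the share was 31.3%.

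The fitted share differed widely between mice, from 16.6% in rotarod 3 to 141.8% in control 1, which had 3 nuclei. Of 7510 genes with at least 5 UMIs under the label, 3143 (41.9%) stood above the level expected from the fitted profiles. That share was the background against which the lists below were counted. Without the S100a8/S100a9 and haemoglobin nuclei the number was 1819.

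**Figure D4:**
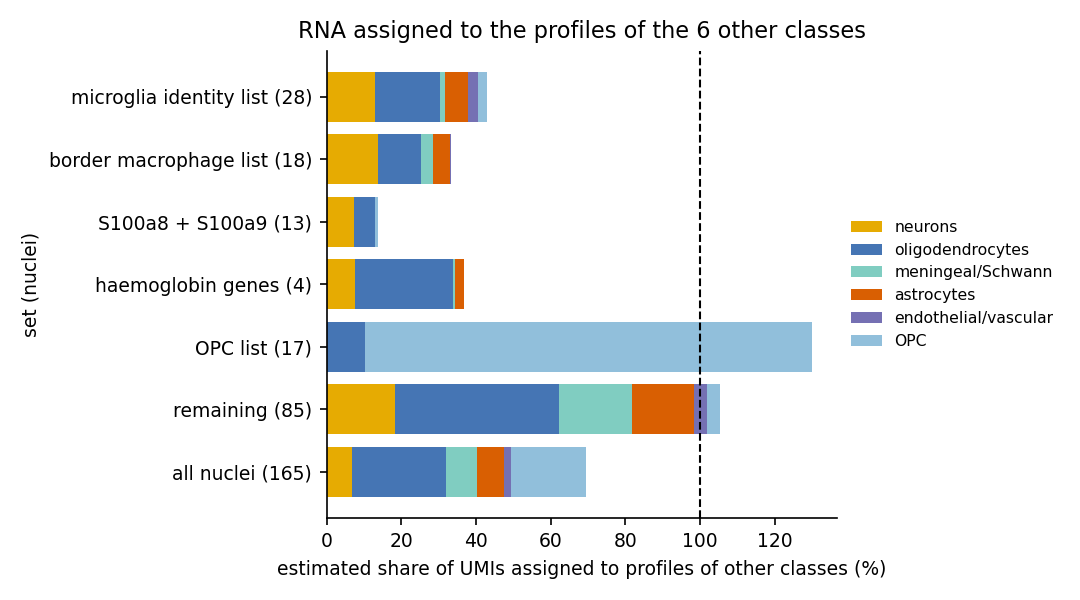
Stacked bars give the fitted share of UMIs (percent, x axis) from the profiles of the 6 other classes, for each set and for all 165 nuclei, with a dashed line at 100%. The remaining and OPC-list nuclei reach 105% and 130%, and the S100a8/S100a9 nuclei 13.8%.

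Genes at least 4 times above every other class numbered 112 of 4456 tested (2.51%), with the lower bound of the ratio above 2 and any class under 3 UMIs set to 3. The classes were made by clustering these same nuclei, so this is a description. Most of these genes led in the S100a8/S100a9 nuclei: 66 had their largest number of UMIs there, 27 in the identity set, 18 in the border set and 1 in the haemoglobin nuclei. Of the 20 with the highest lower bound, 19 led in the S100a8/S100a9 nuclei. These were S100a9, S100a8, Camp, Ngp, Lyz2, Ltf, Lcn2, Anxa1, Wfdc21, Cybb, Arhgdib, Chil3, S100a11, Prdx5, Itgam, Ncf1, Prtn3, Cyba and Ptprc, and the exception was F13a1, with 120 of its 121 UMIs in the border set. Cybb, Cyba and Ncf1 encode subunits of the phagocyte oxidase and Itgam encodes the integrin CD11b. S100a9 had 2772 UMIs under the label, 2771 of them in the 13 nuclei, at 13379 CPM against 6.57 CPM in neurons. Lyz2 had 477 UMIs, 344 in the S100a8/S100a9 nuclei and 125 in the border set. Ptprc, the leukocyte phosphatase CD45, was spread more evenly, with 33 UMIs in the S100a8/S100a9 nuclei, 21 in the identity set and 11 in the border set. Without the S100a8/S100a9 and haemoglobin nuclei 60 genes were enriched, 52 of them among the 112, and without rotarod 3 the number was 73.

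Among the identity genes, all 17 members with at least 5 UMIs stood above the carried-over level, beside 41.9% of all genes. Of 15 tested, 11 were enriched, beside 2.51%. These counts include the S100a8/S100a9 nuclei, which held 130 of the 692 UMIs of the list, with 41 of 80 for Itgam. The median ratio to the highest other class over the 23 genes was 5.49, beside 0.490 over all 15314 genes with a UMI under the label. Csf1r gave 49 UMIs in 30 nuclei of 17 mice, at 236.5 CPM, which was 8.96-fold (interval 3.59 to 28.8) its level in OPC, the highest other class. Cx3cr1 gave 34 UMIs in 11 nuclei of 10 mice, 20 of them in 1 nucleus each of control 7 and formalin 3, and stood 8.46-fold (5.35 to 13.2) above meningeal or Schwann nuclei. Inpp5d gave 55 UMIs in 26 nuclei of 14 mice and stood 2.84-fold (2.03 to 3.94) above endothelial nuclei, so it did not reach the 4-fold limit. Ctss was 12.96-fold (5.71 to 36.3) above OPC. At the low end, Tmem119, a microglial membrane protein, gave 3 UMIs, the microglial factor Sall1 and the actin-binding Aif1 2 each, and the receptor P2ry13 a single UMI. These counts were too low to place, since the whole matrix held 30, 222, 99 and 9 UMIs of them.

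Transcription factors of the lineage were led by Spi1, which encodes PU.1, with 41 UMIs in 23 nuclei against 0.481 expected from other classes. Without the S100a8/S100a9 and haemoglobin nuclei Spi1 gave 21 UMIs, with 13 in the border set and 6 in the identity set. Runx1, a haematopoietic factor, gave 43 UMIs and Ikzf1, which encodes Ikaros, gave 30, or 22 without those nuclei. These 3 were the enriched members of the list, of 8 tested, beside 2.51% of all genes tested. Mef2a with 110 UMIs and Mef2c with 78 also passed the carried-over level, but endothelial nuclei held Mef2a at 473 CPM and Mef2c at 436, beside 531 and 376 under the label. Of the 11 list genes in the matrix, 8 had at least 5 UMIs. All 8 stood above the carried-over level, beside 41.9% of all genes, and the median ratio over the 11 was 0.864.

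Receptors for growth factors and cytokines were above the carried-over level in 13 of 14 members, beside 41.9% of all genes. Of 10 tested, 2 were enriched, beside 2.51%, and the median ratio over the 14 was 2.07. Besides Csf1r and Cx3cr1, the TGF-beta receptor Tgfbr1, part of the signal that maintains microglia, gave 65 UMIs against 13.1 expected, the interleukin 6 receptor gene Il6ra gave 40 against 1.77, and Csf3r, the receptor for granulocyte colony-stimulating factor, gave 20 against 0.626. Purinergic genes were sparser, with 3 of 5 measurable members above the carried-over level, beside 41.9% of all genes. Their median ratio over 10 genes was 0.632, beside 0.490 over all genes with a UMI and 0.660 over all genes tested. Of 4 tested, 1 was enriched. P2ry12 gave 40 UMIs in 14 nuclei of 10 mice, the ATP-gated channel P2rx7 gave 30 against 8.18 expected, and Entpd1, the ectoenzyme CD39, gave 25 against 2.72. P2rx4, an ATP-gated channel studied in microglia after nerve injury, gave 10 UMIs against 7.38 expected and was not above that level.

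Immunoreceptor signalling genes were above the carried-over level in all 18 members with at least 5 UMIs, beside 41.9% of all genes. The median ratio over all 20 was 4.57. Fyb gave 92 UMIs against 4.75 expected, the Src family kinase Lyn 83 against 3.75, Ptprc 66 against 0.586, and Tyrobp, the adaptor that pairs with Trem2, 42 against 0.132. Of the Tyrobp UMIs, 31 lay in the S100a8/S100a9 nuclei and 6 in the identity set, so its level under the label was mostly that of the S100a8/S100a9 nuclei. Motility genes stood above the carried-over level in 15 of 16 members, beside the same 41.9%, with a median ratio of 4.17. Among them were the exchange factor Dock8 with 78 UMIs against 2.13 expected and Dock2 with 57. The adaptor Apbb1ip gave 69 and the GTPase-activating protein gene Arhgap15 gave 104. Elmo1, the partner of Dock proteins, gave 165 UMIs but oligodendrocytes held it at 819 CPM, beside 796 under the label.

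The border set held 50.2% of the UMIs of the complement and phagocytosis list, and 33.5% without control 9. C1qa gave 35 UMIs, 22 in the border set and 13 in the identity set, C1qb 24 and C1qc 25, and the scavenger receptor Msr1 27, of which 24 lay in the border set. Of the UMIs of the lysosomal and lipid list, 190 lay in the identity set and 313 in the border set, but without Apoe these were 178 and 139. Apoe gave 216 UMIs, 174 of them in the border set. Control mice gave 148 of the 216, of which 116 came from control 9 and 32 from the other 8 controls, beside 60 in formalin mice. Ctsd, cathepsin D, was at 0 under the label, but the whole matrix held 9 UMIs of it.

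Genes linked to disease-associated microglia, a state described in models of neurodegeneration, lay in different sets, with a median ratio of 0.610 over 16 members. Clec7a with 16 UMIs and Lgals3 with 29 were led by the S100a8/S100a9 nuclei, Apoe by the border set, while Cst7 gave 1 UMI, Itgax 2, Lpl 2, Spp1 4 and Gpnmb 0. Inflammatory genes were barely detected. Il1b and Tnf gave 1 UMI each, and Il6, Ccl2, Cxcl10, Nos2, Ptgs2 and Tlr2 gave 0 of 207188 UMIs, which allows up to 14.5 CPM. The whole matrix held 5 UMIs of Il1b, 6 of Tnf and 6 of Il6, so a difference from other classes was not detectable at this depth. Rapid activity genes came to 45 UMIs over 23 genes, with Fos at 2, Egr1 at 1 and Jund at 11.

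The same cuts were applied to nuclei outside the label. They were not adjusted for depth, and neurons held up to 50372 UMIs. At least 5 identity UMIs were found in 44 nuclei under the label, in 37 neurons, 16 endothelial nuclei, 12 oligodendrocytes, 7 meningeal or Schwann nuclei, 4 astrocytes and 3 OPC. As shares these were 26.7% of the label, 0.521% of neurons and 2.20% of endothelial nuclei. A sum of at least 50 UMIs of S100a8 and S100a9 was seen in 1 nucleus with another class, a neuron. Haemoglobin sums of at least 100 UMIs were seen in 16 endothelial nuclei, 6 oligodendrocytes, 5 neurons, 3 astrocytes, 2 meningeal or Schwann nuclei and 1 OPC, beside the 4 under the label. Doublets were not called, so their part in these counts was not tested.

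The number of nuclei under the label was compared between groups as a share of each mouse's classed nuclei. Controls ranged from 0.435 to 1.61% with a median of 0.858%, formalin mice from 0.907 to 3.26% with a median of 1.25%, and the 5 rotarod mice held 1.47, 0.932, 3.34, 1.497 and 0.559%. All 3 groups overlapped. Control mice had a mean of 0.9499% ± 0.411 (SD, n = 9). Formalin mice had a mean of 1.52% ± 0.727 (SD, n = 10), and rotarod mice one of 1.56% ± 1.07 (SD, n = 5). The formalin mean was 0.566 percentage points above that of controls (two-sided exact permutation test over mice, p = 0.0392), which did not pass after adjustment over the 5 tests of share and depth (adjusted exact permutation p = 0.196). With the formalin samples merged in pairs the difference was 0.540 points (exact permutation p = 0.0729). The rotarod mean was 0.611 points above controls (exact permutation p = 0.183, adjusted p = 0.305), and formalin and rotarod means differed by -0.045 points (exact permutation p = 0.934, adjusted p = 0.935).

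Most of the difference in nuclei between formalin and control mice lay in the remaining set. Formalin mice held 46 remaining nuclei and controls 19, of which formalin 6 alone held 15, while the identity set numbered 9 in formalin and 10 in control mice. Counting only the identity and border sets, the mean share was 0.309% ± 0.339 (SD, n = 9) for controls and 0.427% ± 0.399 (SD, n = 10) for formalin mice, with 0.400% ± 0.0670 (SD, n = 5) for rotarod mice. This left a formalin difference of 0.118 points that was given no test. As a share of all deposited barcodes the formalin difference was 0.246 points (exact permutation p = 0.199), and with the 3 cx controls left out 0.521 points (exact permutation p = 0.105). Leaving out any 1 of 19 mice gave p between 0.0157 and 0.0748 in the exact permutation test, above 0.05 for 9 of them.

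**Figure D5:**
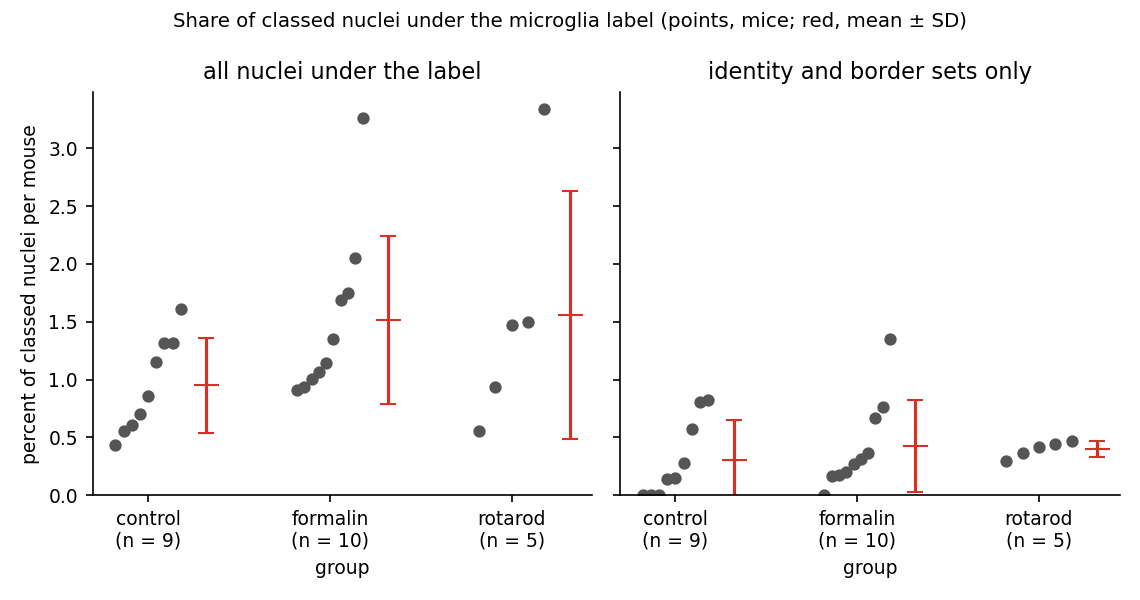
Left, points give each mouse's nuclei under the label as a percent of its classed nuclei; right, the same for the identity and border sets alone. Lines mark the group mean and bars the SD, and the lower end of the control bar on the right is cut off at 0. On the left the means are 0.9499, 1.52 and 1.56% in control, formalin and rotarod mice; on the right 0.309, 0.427 and 0.400%.

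Depth under the label also varied by mouse. Control mice averaged 1438 ± 609 UMIs per nucleus (SD, n = 9). The average was 1042 ± 364 (SD, n = 10) after formalin and 1400 ± 610 (SD, n = 5) after the rotarod. On the log2 scale formalin lay 0.41 below controls, a ratio of 0.753 (exact permutation p = 0.161, adjusted p = 0.305), and rotarod 0.03 below (exact permutation p = 0.935, adjusted p = 0.935). With the 3 cx controls left out the rotarod value was instead 0.27 above.

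Expression under the label was then compared between groups, with UMIs summed per mouse over the 18 mice that had at least 5 such nuclei, 6 control, 9 formalin and 3 rotarod. The 134 genes that passed the filter on low counts included none of the 23 identity genes and none of the 16 pain-linked genes, so the fit does not describe the microglial genes themselves. Genes of other classes, such as Meg3, and S100a8, S100a9, F13a1 and Apoe were among those tested. No gene passed an adjusted p of 0.05 by edgeR's quasi-likelihood test in any of the 3 contrasts. At an unadjusted p under 0.05 there were 8 genes (5.97%) for formalin against control, 9 (6.72%) for rotarod against control and 18 (13.4%) for formalin against rotarod. DESeq2 called 0, 0 and 4 genes. The summed libraries held 3759 to 31104 UMIs with a median of 7904, and the biological coefficient of variation was 0.852, and only large changes could be called at this depth.

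For formalin against control the smallest p-values belonged to genes that lead in the S100a8/S100a9 nuclei and to several of other kinds. Anxa1, an annexin of myeloid cells, gave 0, 0 and 27 UMIs as the lowest, median and highest of 6 control mice and 0, 0 and 2 in 9 formalin mice. Its fitted log2 difference was -4.60 ± 1.55 (SE) with an edgeR adjusted p of 0.683. Lcn2 (log2 -3.49) and Lyz2 (log2 -3.05) went the same way at the same adjusted p, and the groups overlapped for all 3. These differences stood beside 4 S100a8/S100a9 nuclei in the control mice of the fit and 1 in the formalin mice. The 4 control nuclei all came from controls 7 and 9, whose titles end in cx, with 2 in each. Pcdh15, a protocadherin gene, had a fitted log2 difference of 1.24 ± 0.54 with the same edgeR adjusted p.

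The smallest p-values in both rotarod contrasts belonged to mt-Rnr1. mt-Rnr1, the small mitochondrial ribosomal RNA, stood at 10488, 520, 1382, 2480 and 182 CPM under the label in rotarod mice 1 to 5, at 0 to 5624 CPM (median 798) in controls and at 411 to 1785 CPM (median 1172) in formalin mice. Rotarod values thus lay both above and below the formalin range. Rotarod 3 held 6 of the S100a8/S100a9 nuclei, and without the S100a8/S100a9 and haemoglobin nuclei its level was 3849 CPM instead of 1382 for mt-Rnr1 and 46906 CPM instead of 14596 for mt-Rnr2. Among the mice of the fit, the fitted log2 difference of formalin from rotarod was -2.42 ± 0.58 (SE; edgeR adjusted p = 0.0624), and that of rotarod from control 2.17 ± 0.64 (edgeR adjusted p = 0.397). With under 5 nuclei, rotarod 2 and 5, the lowest rotarod values, were left out of the fit. So were controls 1, 3 and 8, at 2609, 292 and 5624 CPM, and formalin 3, at 1419. Mean mt-Rnr1 in the fit was thus 4783 CPM for rotarod and 1047 for control mice, beside 3010 and 1645 over all mice of these groups. mt-Rnr2, the large one, averaged 43718 CPM ± 26631 (SD, n = 5) under the label after the rotarod, 18705 ± 6670 (SD, n = 10) after formalin and 20171 ± 10967 (SD, n = 9) without a challenge. In all other classes together it averaged 14235, 8022 and 9282 CPM in the same order, so the same order of groups was seen outside the label. Its fitted difference between formalin and rotarod was -1.69 ± 0.50 (log2, edgeR adjusted p = 0.108), while DESeq2 called both genes, with adjusted p of 0.00279 for mt-Rnr1 and 0.0386 for mt-Rnr2.

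The pain-linked genes were therefore described without a test. Of the 15 in the matrix, 10 had at least 5 UMIs and 8 of these stood above the carried-over level, beside 41.9% of all genes. Csf1r had a lowest, median and highest value of 0, 2 and 6 UMIs in the 9 controls, 0, 1.5 and 10 in the 10 formalin mice, and 0, 1 and 3 in the 5 rotarod mice. Ctss had 0, 2 and 23 in controls, 0, 1.5 and 5 in formalin and 1, 2 and 5 in rotarod mice. P2ry12 had 0, 0 and 4 in controls, 0, 0 and 6 in formalin and 0, 2 and 8 in rotarod mice. Ranges overlapped in all 3 groups for each of these genes. Cybb, the phagocyte oxidase subunit, gave 33 UMIs in controls, 17 in formalin and 76 in rotarod mice, and 67 of the 76 came from a single mouse. Of its 126 UMIs under the label, 95 lay in the S100a8/S100a9 nuclei, 16 in the border set and 14 in the identity set. The kinase gene Mapk14 gave 11, 11 and 6 UMIs in the same order. Bdnf gave 0 UMIs under the label, beside 310 in the whole matrix.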

How the data were processed

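Whole-number UMI counts per gene and barcode were deposited by the authors as 1 matrix of 750 barcodes for each of 24 mice, with cluster and class labels in a second deposited table (SC3 clusters, per the file headers). The builds mm10 and GRCm38 come from the submitters' processing notes. An aligner, an annotation or the treatment of intronic reads was not given in the sources used here. Total UMIs per mouse ranged from 549903 to 3243587. Formalin samples 1 to 5 and 6 to 10 may be pairs from the same mice, which the labels do not settle, and p-values measure the spread between the samples. Of 276 library pairs, 24 shared a barcode, at most 4. Doublets were not called again.

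Members, lists and rules were chosen with earlier results of these data known. Counts were pooled by class for CPM and exact intervals. The carried-over share came from non-negative least squares of 6 marker list sums on the 6 class profiles; a gene was above it where the lower 95% Poisson bound of its UMIs passed the expected number. Shares and log2 UMIs per nucleus were tested over mice by two-sided exact permutation in Python 3.11.15 with scipy 1.17.1, adjusted by Benjamini-Hochberg over 5 tests. Counts per mouse with at least 5 nuclei were tested with edgeR 4.0.16 (TMM, filterByExpr, quasi-likelihood, Benjamini-Hochberg at 0.05) in R 4.3.3, with DESeq2 1.42.0 as an alternative. On simulated counts for formalin against control the fit recovered 20 of 47 tested genes changed 4-fold (42.6%) and 47 of 55 changed 8-fold (85.5%), over 228 genes tested, with 5 calls among unchanged genes. Named genes were Csf1r, Cx3cr1 and Inpp5d, the 20 enriched genes with the highest lower bound, up to 6 members of each list, the genes with the smallest p of each contrast, and pain-linked genes by group. The leading genes of each set, and Pcdh15, Bcas1, Enpp6 and other genes outside that rule, were named after their values were seen. Irf8, Adora3 and Ccl3 were not analysed here. Promoter sequences are from RefSeq. No per-sample column was left unused. Results for a few genes are not reported here.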

Additional observations from a re-analysis of the deposited data

Results flagged for a closer look

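Dixon's test at 95% was applied to 33 combinations of a group and a measure and marked 9 of them; chance marks about 1 in 20, but a single count of 1 among zeros is always marked, as in formalin 10 and for the OPC list in rotarod 3. Formalin 6 had 3.26% of its classed nuclei under the microglia label, above 2.05% in the next formalin mouse, and its 15 remaining nuclei stood above 8 in the next. Rotarod 3 held 6 of the S100a8/S100a9 nuclei, with 1 in the next rotarod mouse, and was the only rotarod mouse with a nucleus of the OPC list (1). Formalin 10 was the only formalin mouse with an S100a8/S100a9 nucleus (1). Control 9 held 3 nuclei of the border set, with 1 in the next control. For mitochondrial ribosomal RNA, mt-Rnr1 under the label reached 5624 CPM in control 8, with 2609 CPM in the next control, and 10488 CPM in rotarod 1, with 2480 CPM in the next rotarod mouse. mt-Rnr2 was lowest among formalin mice in formalin 1, at 4133 CPM, with 15400 CPM in the next.

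Of 3818 nuclei that the authors discarded, 23 had at least 5 UMIs of the microglia identity list, 61 had at least 100 haemoglobin UMIs, and 0 had at least 50 UMIs of S100a8 and S100a9. The causes of these values were not tested.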

How the results depend on the processing

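Of 413 recomputed values, 332 kept their direction and their side of the threshold or stayed within the spread of the main value, 53 moved, 13 lost their call and 15 changed sign. The cause was not tested unless stated. The formalin difference in share (0.566 points, p = 0.0392) was no longer past 0.05 in the exact permutation test as a share of all barcodes (0.246, p = 0.199), of non-neuronal nuclei (0.703, p = 0.259), without the cx controls (0.521, p = 0.105) or with formalin samples merged in pairs (0.540, p = 0.0729). With the identity and border sets alone, chosen after seeing the data, the formalin, rotarod and formalin-minus-rotarod differences were 0.118, 0.0911 and 0.0272; without the S100a8/S100a9 and haemoglobin nuclei the last was 0.290. Leaving out 1 mouse gave 0.372 to 0.648 for formalin against control, -0.295 to 0.400 for formalin against rotarod and 0.166 to 0.861 for rotarod against control. For UMIs per nucleus it gave -0.54 to -0.30 for formalin and -0.20 to 0.22 for rotarod, and 0.27 for rotarod without the cx controls.

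Genes called for formalin against control, rotarod against control and formalin against rotarod were 6, 4 and 232 with no filter on low counts, over 14862 genes. For formalin against rotarod they were 4 with DESeq2, 1 with at least 3 nuclei per mouse, 3 with those groups alone and 2 without the S100a8/S100a9 and haemoglobin nuclei, and 0 to 3 with 1 mouse left out. For rotarod against control they were 2 without the cx controls, 1 without those nuclei and 0 to 2 with 1 mouse left out. The share of replicate numbers between formalin and rotarod does not mark a pairing in the labels; with the replicate block 0 genes were called over 4 mice, and the share differed by -0.381 (exact sign-flip p = 0.75, smallest possible 0.0625). The filter on mice with a high carried-over share left 1 control and 1 rotarod mouse and could not be fitted.

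Enriched genes numbered 16 at 300 UMIs per nucleus, 67 at 8-fold, 492 against all other nuclei pooled, 57 without the cx controls, 206 without nuclei that lack identity UMIs, 60 without the S100a8/S100a9 and haemoglobin nuclei, and 73 to 115 with 1 mouse left out. Genes above the carried-over level numbered 1819 without those nuclei and 2094 to 3265 with 1 mouse left out. The carried-over share was 31.3% with 1 profile, and the share with a marker UMI 13.4% at 300 UMIs.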
